A study of Homo sapiens with 4 samples.

Results

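The miRNA levels of LS174T cells in which Ascl2 was knocked down were compared with those of LS174T cells carrying the control vector. LS174T is an established line of human colonic adenocarcinoma, and Ascl2 is an achaete-scute transcription factor that marks the stem cells of the intestinal crypt. The tested cells, shRNA-Ascl2/LS174T, were stably transfected with a plasmid that expressed a short hairpin RNA against Ascl2. The reference cells, shRNA-Ctr/LS174T, carried the same pGenesil-1.1 plasmid with no hairpin insert, so that the hairpin itself and its target cannot be told apart in the comparison. Both were kept under 0.2 mg/ml G418 and carried EGFP from the vector. Each was hybridised to 1 array, which gives 2 of the 4 arrays of the series, and the other 2 hold the same pair of transfectants in HT-29, another colonic adenocarcinoma line. The methods describe 3 stable clones, but which of them, or whether a mixture, gave the RNA is not given in the sources used here. Ascl2 mRNA has no probe on a miRNA array, so the knockdown could not be checked on these data.

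Each array carried 12312 spots. Of the 2679 probe IDs, 1276 had the name of a human miRNA and 4 spots each, and these are the members described here. The value of a probe is its net intensity, which is the foreground minus the local background of a spot in the units of the scanner, averaged over the spots. A probe was compared where its brighter array exceeded 50, which left 614 human miRNAs. Of these, 468 were above 50 on both arrays, 65 on the shRNA-Ascl2/LS174T array only and 81 on the shRNA-Ctr/LS174T array only, while 662 were at or below 50 on both. With 1 array per condition there was no biological replicate. No p-value was computed, each SD is over the 4 spots of 1 array and covers technical spread only, and a miRNA is called higher or lower where its ratio of shRNA-Ascl2/LS174T over shRNA-Ctr/LS174T passes 2-fold.

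A miRNA is cut from a hairpin transcript, and either arm of the hairpin can give a mature strand, with the less abundant one carrying a star in the older names of this array. The mature strand guides an Argonaute protein to messenger RNAs, largely through its seed, bases 2 to 8, so that miRNAs with 1 seed share many targets. Colon epithelium is known for high miR-192, miR-194, miR-215 and miR-200 family levels. The let-7, miR-15/16 and miR-17 families, whose hairpins are often transcribed in clusters, are widely expressed regulators of growth and of the cell cycle.

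The mature sequences of the miRNAs on which the results turn are given first, from RefSeq (GRCh38.p14), 5′ to 3′, with the seed in capitals. Of 52 array names looked up there, 49 were matched, and miR-21*, miR-3607-3p and miR-3195 were not. The first set holds the miRNAs of the colon epithelium, in which miR-192 and miR-215 share a seed, as do miR-200b, miR-200c and miR-429, and as do miR-200a and miR-141.
miR-192: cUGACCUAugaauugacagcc
miR-215: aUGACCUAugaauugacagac
miR-194: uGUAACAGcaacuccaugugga
miR-200a: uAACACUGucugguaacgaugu
miR-141: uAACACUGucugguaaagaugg
miR-200b: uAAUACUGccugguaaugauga
miR-200c: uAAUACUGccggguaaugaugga
miR-429: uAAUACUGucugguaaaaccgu

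miR-192 is encoded at chr11:64891203-64891223 on the minus strand, inside the noncoding host gene MIR194-2HG, with 1 of the 2 miR-194 genes at chr11:64891404-64891425. The other miR-194 gene lies at chr1:220118206-220118227 and miR-215 at chr1:220117916-220117936, both on the minus strand and inside IARS2. The next set holds other miRNAs with large ratios, with the pair miR-221 and miR-222 sharing a seed and the miR-15/16 family sharing another.
miR-7: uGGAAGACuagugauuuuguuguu
miR-190: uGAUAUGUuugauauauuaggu
miR-338-3p: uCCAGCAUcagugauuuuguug
miR-3651: cAUAGCCCggucgcugguacauga
miR-155: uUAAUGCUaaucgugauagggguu
miR-221: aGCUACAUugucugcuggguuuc
miR-222: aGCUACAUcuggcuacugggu
miR-15a: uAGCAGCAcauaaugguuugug
miR-15b: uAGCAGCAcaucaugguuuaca
miR-16: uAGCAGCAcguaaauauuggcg
miR-195: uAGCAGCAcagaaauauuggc

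The third set is the let-7 family, which shares 1 seed and differs at few other bases. Its members were called in both directions, at shares near those of all compared miRNAs.
let-7a: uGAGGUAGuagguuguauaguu
let-7b: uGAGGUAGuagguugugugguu
let-7c: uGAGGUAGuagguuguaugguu
let-7f: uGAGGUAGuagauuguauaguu
let-7g: uGAGGUAGuaguuuguacaguu
let-7i: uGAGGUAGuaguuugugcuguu

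The fourth set holds 6 of the miRNAs with the largest falls, none of which shares a seed with another.
miR-1321: cAGGGAGGugaaugugau
miR-940: aAGGCAGGgcccccgcucccc
miR-638: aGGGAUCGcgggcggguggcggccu
miR-3685: uUUCCUACccuaccugaagacu
miR-4312: gGCCUUGUuccugucccca
miR-4274: cAGCAGUCccucccccug

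The comparison depends on how the arrays are scaled, since the 2 kinds of reference on the array lay far apart. Under miRNA-median scaling, the scale of an array was its median intensity among 507 named miRNA probes that exceeded 50 on both LS174T arrays, namely 300.0 on the shRNA-Ascl2/LS174T array and 291.5 on the shRNA-Ctr/LS174T array. Under that scaling the 40 spike-in controls above 50 on both arrays, synthetic RNAs added to each sample, had a median ratio of 8.60 (quartiles 4.60 and 11.3), and 37 of them passed 2-fold towards shRNA-Ascl2/LS174T. The 4 landmark spike-ins had a median ratio of 2.49 and the other 36 one of 9.33. On the HT-29 arrays, the same 40 controls had a median ratio of 1.01. The array-wide shift between the scalings was thus 8.60-fold, or 3.10 on the log2 scale, and with no replicate array it has no error. A miRNA at a ratio of 1 under miRNA-median scaling is 8.60-fold lower relative to the spike-ins.

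Other controls did not move together either. The 18 small nucleolar RNA controls above 50 on both arrays had a median ratio of 4.02 under miRNA-median scaling, and their ratios spanned 0.371 to 16.6, the highest being SNORD48 (4575 on the shRNA-Ascl2/LS174T array and 268 on the shRNA-Ctr/LS174T array). The 8 probes of U6, U1, U5 and 5S RNA had a median ratio of 0.655 and all lay between 0.511 and 1.09. The control of the Hy3 label was at 326 on the shRNA-Ascl2/LS174T array and at 800 on the shRNA-Ctr/LS174T array. The landmark spike-ins, which are spread over all blocks of an array, were in blocks 19 to 36 at 1.02 of their level in blocks 1 to 18 on the shRNA-Ascl2/LS174T array, and at 0.723 on the shRNA-Ctr/LS174T array. The part of hybridisation, label and block position in the ratios below was not tested.

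**Figure D1:**
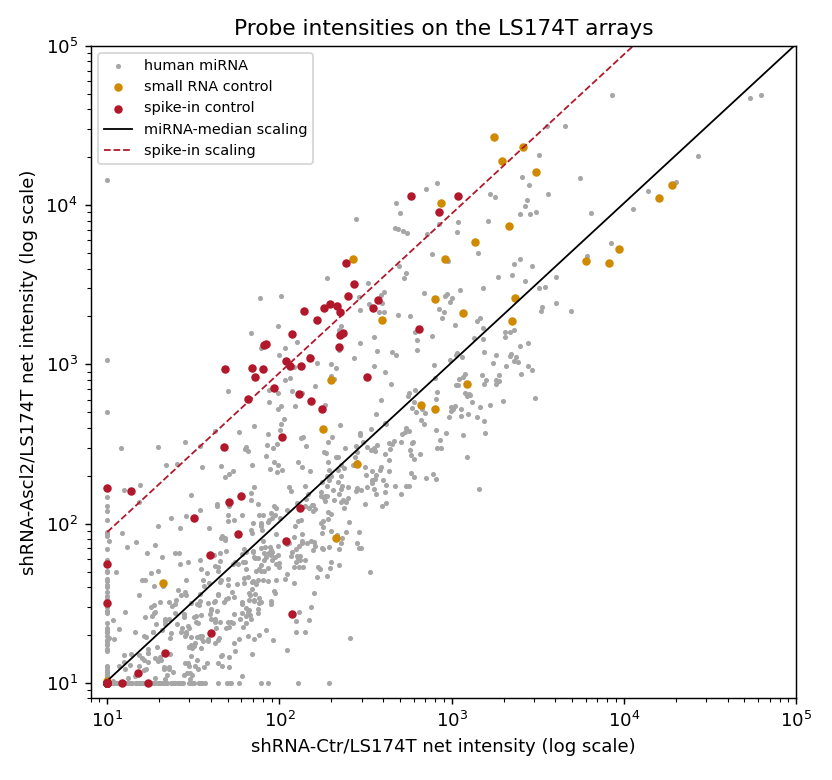
Net intensity on the shRNA-Ascl2/LS174T array (y axis) against the shRNA-Ctr/LS174T array (x axis), both on log scales with values under 10 drawn at 10, for human miRNA probes, small RNA controls and spike-in controls. The solid line marks a ratio of 1 under miRNA-median scaling and the dashed line a ratio of 1 under spike-in scaling, 8.60-fold above it. By their measured values, 24 of the 614 compared human miRNAs were at least 2-fold higher than the dashed line and 510 at least 2-fold lower. Several of the 24 had shRNA-Ctr/LS174T intensities under 10 and, being drawn at 10, appear near or below the dashed line.

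Relative to the miRNA median, 177 of the 614 human miRNAs were at least 2-fold higher in shRNA-Ascl2/LS174T cells (28.8% of those compared) and 156 were lower by as much (25.4%), which together is 54.2%. The spots of the 2 arrays did not overlap for 170 of the higher and 146 of the lower miRNAs, against 190 higher (30.9%) and 215 lower (35%) of all those compared. Both arrays were above 50 for 126 of the higher and 92 of the lower. The split depended on the scaling set, with 116 higher and 340 lower when the small RNA controls set the scale, 158 and 218 with the 75th percentile, and 197 and 100 with the median of the probe ratios in place of the ratio of the medians. Relative to the spike-ins, 24 miRNAs were higher by 2-fold or more (3.91%), 510 were lower (83.1%) and 80 were neither. All 156 lower miRNAs were lower under both scalings. The arithmetic fixes this, since a spike-in-scaled ratio is the miRNA-median ratio divided by the array-wide shift of 8.60. It is therefore no separate check of the falls. For the same reason, any miRNA higher relative to the spike-ins is also higher relative to the miRNA median. Of the 177 higher miRNAs, 24 were higher relative to both references, 80 did not differ by 2-fold from the spike-ins and 73 were lower relative to the spike-ins. The median log2 ratio over the compared miRNAs with a ratio was -0.29 relative to the miRNA median and -3.39 relative to the spike-ins.

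The 24 miRNAs higher under both scalings are those that changed beyond the array-wide shift in the upward direction, but for most of them the shRNA-Ctr/LS174T array was near or below background. Only 9 were above 50 on both arrays. Raising values under 50 to 50 left 11 at 2-fold or more relative to the spike-ins (1.79% of those compared), namely these 9, miR-338-3p and miR-1181. The 9 had spike-in-scaled ratios between 2.00 and 3.81, so that several were at the limit itself. Over the alternatives of background, spot summary and block range, the lowest such ratio was under 2 for miR-190 (1.94), miR-222 (1.72), miR-3607-3p (1.72), miR-21* (1.47) and miR-3651 (1.40). Their calls thus depend on the processing. With the landmark spike-ins left out of the scale, 20 miRNAs were higher in place of 24.

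miR-192, which is abundant in intestinal epithelium and is induced by p53, had the second largest ratio of the 9, after the probe miRPlus-A1087. Its spots read 7248, 8086, 9248 and 7975 in shRNA-Ascl2/LS174T cells, against 180, 350, 258 and 329 in shRNA-Ctr/LS174T cells. The ratio was 28.3 relative to the miRNA median and 3.29 relative to the spike-ins, with no overlap between the arrays. The other arm of its hairpin, miR-192*, read 399, 589, 526 and 506 in shRNA-Ascl2/LS174T cells and 1, -5, 35 and 0 in shRNA-Ctr/LS174T cells, which is at least 9.81-fold higher relative to the miRNA median when the control array is taken at 50. In HT-29 cells, miR-192 averaged 3893 with shRNA-Ascl2 and 5040 with shRNA-Ctr, so that the low array of the 4 was shRNA-Ctr/LS174T.

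miR-7, a miRNA of neuroendocrine and secretory cells that targets EGFR and is encoded inside HNRNPK among other loci, read 11001, 12548, 9228 and 8788 in shRNA-Ascl2/LS174T cells. In shRNA-Ctr/LS174T cells its spots were 655, 655, 261 and 337. The ratio was 21.2 relative to the miRNA median and 2.46 relative to the spike-ins. miR-375, another miRNA of secretory cells, was at 1435 in shRNA-Ascl2/LS174T cells and 1526 in shRNA-Ctr/LS174T cells and had a ratio of 0.914, so that these secretory cell miRNAs did not move together. miR-190, encoded inside the talin gene TLN2, read 1491, 1723, 1533 and 1586 in shRNA-Ascl2/LS174T cells, against 72, 70, 67 and 66 in shRNA-Ctr/LS174T cells. Its ratio was 22.4 relative to the miRNA median and 2.60 relative to the spike-ins, and it was below 50 on both HT-29 arrays.

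miR-222, which with miR-221 targets the cell cycle inhibitor p27, read 9893, 9560, 8351 and 7805 in shRNA-Ascl2/LS174T cells and 676, 498, 404 and 431 in shRNA-Ctr/LS174T cells. The ratio was 17.2 relative to the miRNA median and 2.00 relative to the spike-ins. miR-21*, the minor arm of the miR-21 hairpin, read 1258, 1403, 2217 and 2138 in shRNA-Ascl2/LS174T cells, against 146, 88, 92 and 67 in shRNA-Ctr/LS174T cells, with ratios of 17.3 and 2.02. miR-21 itself was not analysed here. All 4 shRNA-Ascl2/LS174T spots of each of these miRNAs were above every shRNA-Ctr/LS174T spot.

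Also among the 9 were miR-3607-3p and miR-3651, both with late numbers. miR-3607-3p, whose hairpin RefSeq now lists as the small nucleolar RNA gene SNORD138, read 10689, 10571, 15148 and 13978 in shRNA-Ascl2/LS174T cells and 886, 711, 655 and 584 in shRNA-Ctr/LS174T cells (ratios 17.3 and 2.01), and its other arm, miR-3607-5p, had a ratio of 6.02 relative to the miRNA median. miR-3651, inside the IARS1 gene, read 2575, 2558, 4284 and 4478 in shRNA-Ascl2/LS174T cells, against 266, 208, 136 and 141 in shRNA-Ctr/LS174T cells (ratios 17.98 and 2.09). These ratios stand beside the median of 4.02 for the small nucleolar RNA controls. The last 2 of the 9 were the manufacturer's own sequences miRPlus-A1087 and miRPlus-A1086, with averages of 2609 ± 403 and 2676 ± 204 in shRNA-Ascl2/LS174T cells and of 77.5 ± 46.0 and 102 ± 21.5 in shRNA-Ctr/LS174T cells (SD over 4 spots), and with spike-in-scaled ratios of 3.81 and 2.97.

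miR-338-3p, encoded inside AATK, read 1246, 1329, 690 and 1006 in shRNA-Ascl2/LS174T cells and -14, -4, -4 and 1 in shRNA-Ctr/LS174T cells. No ratio can be given against an intensity below 0, and with the control at 50 it was at least 20.8-fold higher relative to the miRNA median and at least 2.41-fold higher relative to the spike-ins. Its partner arm miR-338-5p averaged 57.3 in shRNA-Ascl2/LS174T cells and 29.5 in shRNA-Ctr/LS174T cells. The call for miR-1181 rested on 1 spot, since its spots read 57542, 3, 6 and 13 in shRNA-Ascl2/LS174T cells and -2, 15, 16 and 9 in shRNA-Ctr/LS174T cells. With the median of the spots its ratio relative to the miRNA median was 0.750.

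The other 13 of the 24 averaged 12 or less in shRNA-Ctr/LS174T cells. They were miR-192*, miR-532-5p, miR-3666, miR-378*, miR-146b-5p, miR-339-3p, miR-146a, miR-26b*, miR-29c*, miR-34a*, miR-33b*, miR-182* and miR-3667-3p. Apart from miR-192* and miR-532-5p (297 in shRNA-Ascl2/LS174T cells and 12 in shRNA-Ctr/LS174T cells), all averaged under 150 in shRNA-Ascl2/LS174T cells and under 5 in shRNA-Ctr/LS174T cells. Their spike-in-scaled ratio was below 2 once the control was taken at 50, so that for these 13 the excess over the array-wide shift rests on control intensities below the limit of 50.

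**Figure D2:**
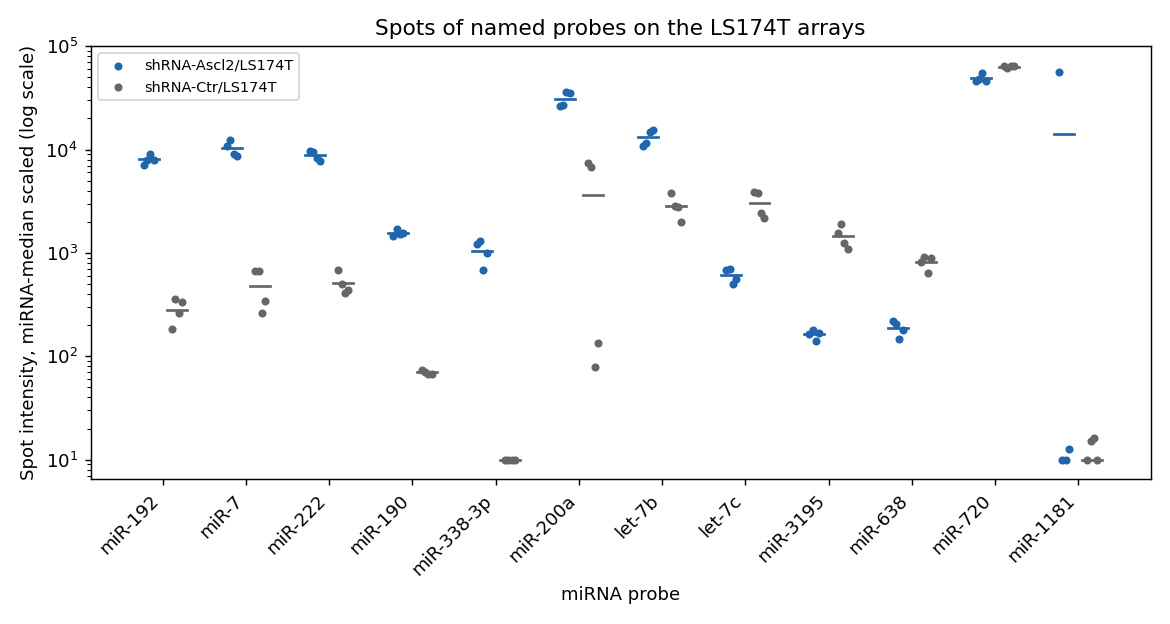
Spots of 12 named probes after miRNA-median scaling (y axis, log scale, values under 10 drawn at 10), with shRNA-Ascl2/LS174T in blue on the left and shRNA-Ctr/LS174T in grey on the right of each pair, and a bar at the mean of the 4 spots. miR-192, miR-7, miR-222 and miR-190 separate fully, let-7b and let-7c separate in opposite directions, and the mean of miR-1181 in shRNA-Ascl2/LS174T cells is set by 1 spot.

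The 12 largest rises relative to the miRNA median among miRNAs above 50 on both arrays, with spots that did not overlap, spanned ratios of 14.9 to 32.7. They were the 9 above with miR-194, miR-155 and miR-15b, and the next in order was miR-15a at 14.3. miR-194 read 8852, 12118, 18053 and 16151 in shRNA-Ascl2/LS174T cells, against 1193, 768, 728 and 615 in shRNA-Ctr/LS174T cells, a ratio of 16.2. miR-155, a miRNA of activated immune cells that is raised in many tumours, averaged 1271 ± 267 in shRNA-Ascl2/LS174T cells and 78.5 ± 38.8 in shRNA-Ctr/LS174T cells (SD over 4 spots), a ratio of 15.7. miR-15b read 7931, 7875, 6598 and 6356 in shRNA-Ascl2/LS174T cells and 640, 602, 340 and 291 in shRNA-Ctr/LS174T cells, a ratio of 14.9. These 3 were between 1.74 and 1.89 relative to the spike-ins and so did not pass 2-fold there. For 11 of the 12, shRNA-Ctr/LS174T was the lowest of the 4 arrays of the series, and for 8 shRNA-Ascl2/LS174T was the highest. The rule that picked the 12 in part fixes these ranks. None of the 12 differed by 2-fold between the HT-29 arrays, where their ratios of shRNA-Ascl2 over shRNA-Ctr lay between 0.677 and 1.79.

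The 12 largest falls by the same rule had ratios of 0.112 to 0.264 relative to the miRNA median. In order of size they were miR-3195, let-7c, miR-1321, miR-940, miR-638, miR-3685, miR-3714, miR-3180-5p, miR-4312, miR-492, miR-4274 and miR-4291, followed by let-7f at 0.277. Of these, 8 carry numbers of 1000 and above, which were given late, while 2 of the 12 largest rises do. miR-3195 read 167, 181, 144 and 170 in shRNA-Ascl2/LS174T cells, against 1546, 1866, 1229 and 1085 in shRNA-Ctr/LS174T cells. miR-638, encoded inside DNM2 and rich in G and C as printed above, read 223, 207, 150 and 182 in shRNA-Ascl2/LS174T cells and 810, 906, 626 and 879 in shRNA-Ctr/LS174T cells, a ratio of 0.230. miR-3685 read 371, 400, 348 and 365 in shRNA-Ascl2/LS174T cells, against 1520, 1568, 1769 and 1391 in shRNA-Ctr/LS174T cells, a ratio of 0.231. miR-1321 read 281, 261, 165 and 346 in shRNA-Ascl2/LS174T cells and 1157, 1331, 1161 and 1258 in shRNA-Ctr/LS174T cells, a ratio of 0.209. These falls were full separations of the spots, as the rule requires. In all 12 the shRNA-Ctr/LS174T array was the highest of the 4 arrays, and in 10 the shRNA-Ascl2/LS174T array was the lowest. Here too the rule in part fixes these ranks. Except for miR-3195, none of the 12 differed by 2-fold between the HT-29 arrays.

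miRNA families and genomic clusters are described here by their counts. These are to be read against the shares of all compared miRNAs, 28.8% higher and 25.4% lower relative to the miRNA median. On the spike-in scale the shares were 3.91% higher and 83.1% lower. Colon epithelial miRNAs were higher relative to the miRNA median, except miR-215. miR-192 and miR-194 had ratios of 28.3 and 16.2. miR-215 was dim (50.5 in shRNA-Ascl2/LS174T cells and 19.8 in shRNA-Ctr/LS174T cells), and with the dimmer array taken at 50 it was not higher, while relative to the spike-ins it was called lower. The miR-200 family, which holds down the ZEB transcription factors and keeps epithelial cells epithelial, was higher in 5 of 5 members, with ratios between 5.56 and 8.56. miR-200b read 25630, 27802, 35113 and 36377 in shRNA-Ascl2/LS174T cells and 4819, 4569, 4638 and 4221 in shRNA-Ctr/LS174T cells. miR-141 averaged 49045 ± 3495 in shRNA-Ascl2/LS174T cells and 8575 ± 2246 in shRNA-Ctr/LS174T cells, and miR-200c and miR-429 had ratios of 6.24 and 6.09. miR-200a had the largest ratio, 8.56, but its spots on the shRNA-Ctr/LS174T array read 7344 and 6725 in 1 block and 78 and 132 in the other, so that its ratio was 4.17 from the spots of blocks 1 to 18 alone and 274 from the others. Such gaps of over 5-fold between the block ranges were found for 1 of 316 miRNAs (miR-1181) on the shRNA-Ascl2/LS174T array and for 9 of 314 on the shRNA-Ctr/LS174T array, miR-33a, miR-33b, miR-425 and miR-181a among them, where a range exceeded 200. Relative to the spike-ins, no member of the family passed 2-fold in either direction. Both transfectants thus showed epithelial miRNAs of a colon line above the limit of 50, miR-215 in shRNA-Ctr/LS174T cells excepted.

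The miR-15/16 family, known for targeting the survival gene BCL2, was higher in 3 of the 4 compared members, with ratios of 14.3 for miR-15a, 14.9 for miR-15b and 6.12 for miR-16. miR-195, which has the same seed, was lower at 69.5 in shRNA-Ascl2/LS174T cells and 180.0 in shRNA-Ctr/LS174T cells, a ratio of 0.375. Star strands of both miR-16 hairpins were also higher, at least 2.11-fold for miR-16-1* and with a ratio of 3.85 for miR-16-2*. Both miR-221 and miR-222 were higher (8.15 and 17.2), while the star strand miR-221* was lower at 174 in shRNA-Ascl2/LS174T cells and 415 in shRNA-Ctr/LS174T cells. miR-130b, miR-301a, miR-301b and miR-454, which share a seed, were higher in 4 of 4 cases, with ratios between 3.17 and 5.40 for 3 of them and of at least 2.93 for miR-454, and the miR-183 cluster, which is transcribed as 1 unit in sensory and epithelial cells, in 3 of 3 (miR-96 7.38, miR-182 4.45, miR-183 2.11). Of the higher miRNAs in this paragraph, miR-183 (0.245), miR-301b (0.369) and miR-16-2* (0.447) were lower relative to the spike-ins, and only miR-222 was higher there.

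The miRNAs of the miR-17 family and its clusters, known to promote proliferation downstream of MYC, numbered 12 compared members, of which 8 were higher, 1 was lower and 3 did not pass 2-fold. miR-93, inside the replication gene MCM7, had the largest ratio of 8.86 (7658 in shRNA-Ascl2/LS174T cells and 840 in shRNA-Ctr/LS174T cells), and miR-92a was at 7.05. miR-17 read 5227, 5436, 3852 and 3870 in shRNA-Ascl2/LS174T cells, against 3479, 3442, 2266 and 806 in shRNA-Ctr/LS174T cells, a ratio of 1.79. miR-20a read 11641, 11503, 10032 and 9726 in shRNA-Ascl2/LS174T cells and 3940, 2917, 1974 and 2069 in shRNA-Ctr/LS174T cells, a ratio of 3.82. miR-18a was the lower one but dim (19.8 in shRNA-Ascl2/LS174T cells and 65.5 in shRNA-Ctr/LS174T cells), and it did not pass 2-fold with the dimmer array taken at 50. Relative to the spike-ins, 10 of the 12 were lower and none was higher, near the shares of all compared miRNAs (83.1% lower and 3.91% higher).

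The let-7 family, which restrains RAS and HMGA2 and is itself held down by LIN28, did not move as 1 group relative to the miRNA median. Of its 9 members, 3 were higher (let-7b 4.62, let-7g 4.76, let-7i 2.31), 2 were lower (let-7c 0.198, let-7f 0.277) and 4 did not pass 2-fold (let-7a 0.857, let-7d 0.641, let-7e 1.297, miR-98 1.06). These counts lie near the shares over all compared miRNAs, 28.8% higher and 25.4% lower. On the spike-in scale, 7 of the 9 were lower and none was higher, against 83.1% lower and 3.91% higher of all compared miRNAs. let-7b read 10936, 11840, 15074 and 15843 in shRNA-Ascl2/LS174T cells and 3763, 2829, 2757 and 1954 in shRNA-Ctr/LS174T cells. let-7c read 690, 706, 505 and 567 in shRNA-Ascl2/LS174T cells, against 3833, 3731, 2392 and 2165 in shRNA-Ctr/LS174T cells. Both pairs of arrays were thus fully separated, and in opposite directions. Counted from 1 at the 5′ end of the mature strand, let-7b and let-7c differ by the single substitution G17A, let-7a and let-7c by A19G and let-7a and let-7f by G12A. In HT-29 cells let-7b averaged 13729 with shRNA-Ascl2 and 16384 with shRNA-Ctr, and let-7c averaged 664 with shRNA-Ascl2 and 830 with shRNA-Ctr, so that for both members shRNA-Ctr/LS174T was the array that stood apart. Probes for members that differ by 1 base can bind each other's targets, and whether cross-hybridisation differed between the arrays was not tested.

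**Figure D3:**
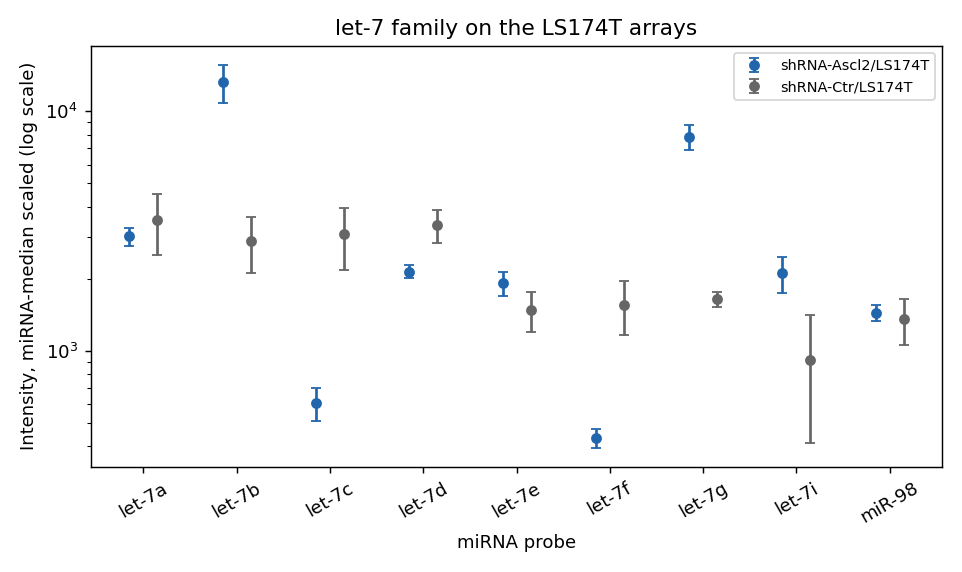
Intensity of the 9 let-7 family probes after miRNA-median scaling (y axis, log scale), shRNA-Ascl2/LS174T in blue on the left and shRNA-Ctr/LS174T in grey on the right of each pair, as mean ± SD over 4 spots of 1 array. let-7b, let-7g and let-7i are higher and let-7c and let-7f lower in shRNA-Ascl2/LS174T cells, and the other 4 lie within 2-fold.

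Further families gave mixed counts relative to the miRNA median. With spike-in scaling, no member of the miR-29, miR-30, miR-26, miR-181 and miR-23/27/24 groups was higher, and 3 of 3, 5 of 5, 2 of 2, 3 of 4 and 3 of 5 of them, in that order, were lower. Of all compared miRNAs, 83.1% were lower and 3.91% higher with that scaling. Of the other miRNAs called higher in this paragraph, miR-148a (0.370), miR-31 (0.296), miR-196b (0.472) and miR-378 (0.330) were lower with spike-in scaling. The miR-29 family was higher in 2 of 3 members (miR-29a 3.17, miR-29b 2.59), the miR-23/27/24 clusters in 3 of 5 (miR-24 6.84, miR-23b 5.70, miR-23a 2.86, with the spots of miR-29a and miR-23a overlapping between the arrays), miR-148a and miR-148b both (3.18 and 5.99), and the miR-26 and miR-181 families in 1 of 2 and 2 of 4. The call of miR-181a is 1 of these and depended on the block, since its spots read 1922, 1955, 2879 and 3037 in shRNA-Ascl2/LS174T cells, against 1806, 1554, 110 and 431 in shRNA-Ctr/LS174T cells, with a ratio of 1.25 from the first 2 spots of each array (blocks 1 to 18) and of 8.77 from the last 2. The miR-30 family was higher in 1 of 5 (miR-30e 2.87), with the other 4 between 0.534 and 1.85. miR-34a, a direct target of p53 and the only compared member of its family, was higher at 6.89. miR-203 of squamous epithelium (6.64) and miR-31 (2.54) were higher too. miR-125a-5p and miR-99b, neighbours on chromosome 19, had ratios of 6.44 and 5.56. Other lists were split within themselves, with miR-10a and miR-196b higher (4.72 and 4.06) but miR-10b and miR-196a lower, and with miR-135b higher (6.46) but miR-135a lower (0.464). miR-10b averaged 20.8 in shRNA-Ascl2/LS174T cells and 124.3 in shRNA-Ctr/LS174T cells, which is at least 2.56-fold lower. Over the alternatives of processing its ratio reached 0.510, so that its call depends on the processing. miR-196a averaged 14.5 in shRNA-Ascl2/LS174T cells and 51.3 in shRNA-Ctr/LS174T cells, which is near the limit of 50 on the brighter array. The miR-378 family had 3 of 5 members higher, with miR-378c at 7.46 and miR-378 at 2.84. Of the inflammation-linked miRNAs, miR-146a, miR-146b-5p and miR-155 were higher as given above, and miR-132 and miR-212 were at 0.663 and 0.687.

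**Figure D4:**
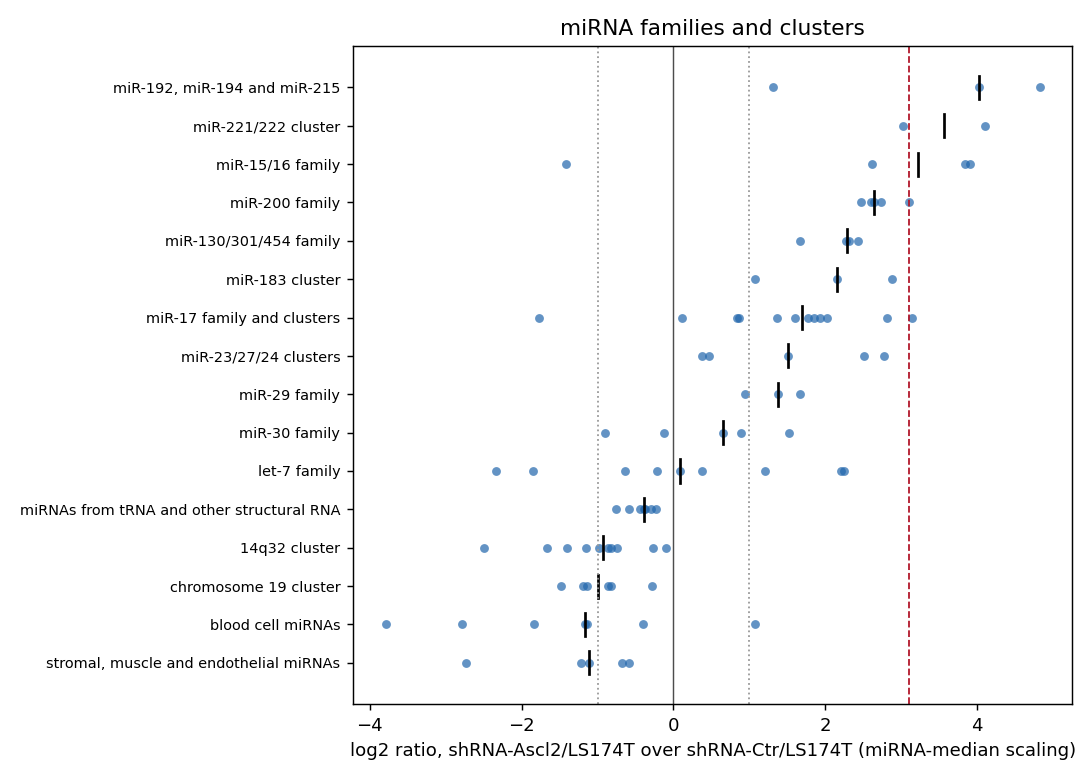
log2 ratio of shRNA-Ascl2/LS174T over shRNA-Ctr/LS174T under miRNA-median scaling (x axis) for each compared member with a ratio (points) of 16 families, clusters and lists (rows), with the median of each as a bar, dotted lines at 2-fold and a dashed line at the spike-in median. The rows of miR-192, miR-221, miR-15 and miR-200 with their relatives have the highest medians, the let-7 row spans both sides, and the rows for miRNAs of structural RNA, of the 14q32 and chromosome 19 clusters and of other cell types have medians below 0.

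Several groups of miRNAs that neighbour each other in the genome were called in 1 direction relative to the miRNA median, while others were mixed. On the X chromosome, 10 compared probes came from 6 hairpins around miR-532, of which 8 were higher and none lower, with a median log2 ratio of 2.69. miR-362-5p averaged 327 in shRNA-Ascl2/LS174T cells and 28.3 in shRNA-Ctr/LS174T cells, miR-660 averaged 383 in shRNA-Ascl2/LS174T cells and 42.5 in shRNA-Ctr/LS174T cells, and in HT-29 cells both were below 100 on both arrays. The miR-17 cluster on chromosome 13 had 6 of 9 compared arms higher and 1 lower. Neighbours on chromosome 3, miR-425 and miR-191, were higher in 3 of 3 arms, with miR-191 at 3240 in shRNA-Ascl2/LS174T cells and 325 in shRNA-Ctr/LS174T cells. In the imprinted 14q32 region, 5 of 18 compared arms in the larger group of neighbours were lower and none was higher. The chromosome 19 cluster of primate-specific miRNAs, silent in most adult tissues, had 3 of its 6 compared members lower and none higher. With spike-in scaling, miR-362-5p (1.31), miR-660 (1.02) and miR-191 (1.13) did not pass 2-fold. miR-532-5p was higher there, as given above, on a control intensity below 50. In the miR-17 cluster, miR-20a (0.445) and miR-19a (0.420) were lower there, and miR-17* (0.840) did not pass 2-fold.

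Pairs of strands with the same miRNA name, 1 of each arm, were set side by side, leaving out 9 in which a star strand carries a locus number. A name can stand for several hairpins, so that not every pair need come from 1 transcript. Of the 96 pairs with both strands compared, both were higher in 30, both were lower in 3, and in 11 they were called in opposite directions. In 41 only 1 strand was called and in 11 neither was. Over all compared miRNAs 28.8% were higher and 25.4% lower, and the pair counts that such rates alone would give were not computed. Among the opposite pairs, miR-193b had log2 ratios of 2.95 and -1.39 for its main and star strands and miR-221 of 3.03 and -1.30.

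The brightest probes did not move together. miR-720, which derives from a tRNA and is no longer regarded as a genuine miRNA, read 46291, 48629, 56104 and 46999 in shRNA-Ascl2/LS174T cells and 63732, 60054, 62853 and 63926 in shRNA-Ctr/LS174T cells, where all 4 spots exceeded 60000 and were close to saturation. Its measured ratio of 0.768 is therefore an upper limit, and whether it passed 2-fold is not known. miR-1260b, with 1 such spot (60008) in shRNA-Ctr/LS174T cells, was at 0.852 and miR-1280 at 0.737. Apart from miR-720, none of the 7 probes for miRNAs from tRNA and other structural RNA passed 2-fold relative to the miRNA median, with measured ratios of 0.590 to 0.852. All 7 were lower relative to the spike-ins, as were 83.1% of all compared miRNAs. miR-491-3p and miR-4284, also among the brightest, were at 0.682 and 0.859. The epithelial miR-141, miR-200a and miR-200b, which were the other bright probes of the shRNA-Ascl2/LS174T array, were higher as given above.

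miRNAs named early and late in miRBase differed in their counts. Of the 419 compared miRNAs with numbers below 1000, 156 were higher (37.2%) and 88 lower (21.0%), and of the 170 with numbers of 1000 and above, 15 were higher (8.82%) and 60 lower (35.3%). Star strands had 38 of 112 higher and 25 lower. The ratio was set against the intensity on an array that took no part in it, shRNA-Ctr/HT-29. In the brightest of 4 equal groups of probes by that array (967 to 53336), 92 of 154 were higher and 14 lower, with a median log2 ratio of 1.51. In the dimmest group (-0.50 to 71.8), 31 of 154 were higher and 57 lower, with a median of -0.62. Of the 153 in each group between these, 18 were higher and 46 lower in the dimmer one, and 36 were higher and 39 lower in the brighter one. Hairpin base composition gave no such gradient, as the median log2 ratio in 4 groups by hairpin GC, low to high, was -0.18, -0.46, 0.01 and -0.37, over the 493 compared miRNAs (80.3%) whose hairpin was found in RefSeq.

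**Figure D5:**
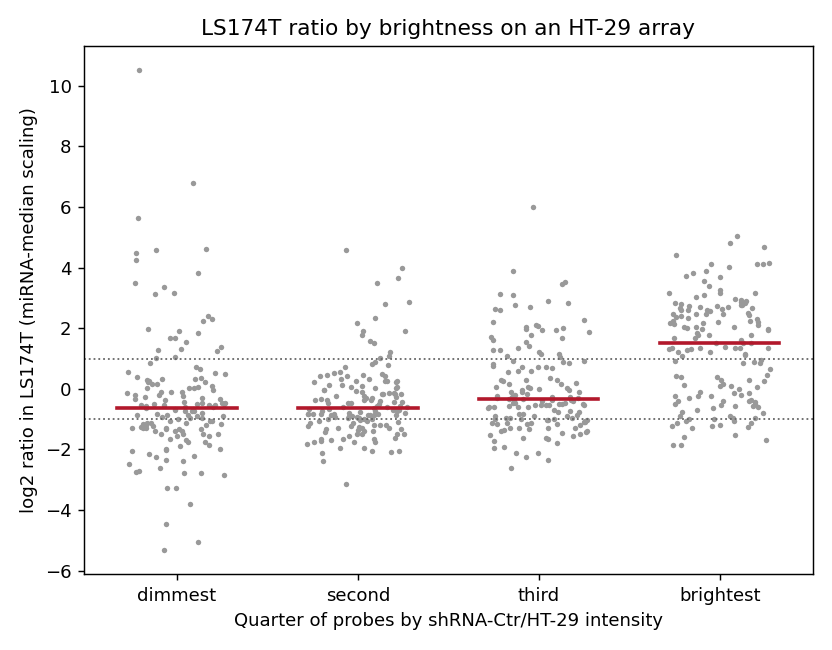
log2 ratio of shRNA-Ascl2/LS174T over shRNA-Ctr/LS174T under miRNA-median scaling (y axis) for compared human miRNAs with a ratio, in 4 groups by net intensity on the shRNA-Ctr/HT-29 array (x axis), with red bars at the medians and dotted lines at 2-fold. The brightest group has a median of 1.51, and the other 3 have medians between -0.63 and -0.34.

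The position of the shRNA-Ctr/LS174T array among the 4 arrays of the series bears on these ratios. On a scale set by the 471 miRNA probes that exceeded 50 on all 4 arrays, it was the lowest array for 144 of the 177 higher miRNAs and the highest for 149 of the 156 lower ones. The shRNA-Ascl2/LS174T array was the highest for 89 of the higher and the lowest for 75 of the lower. Each call already sets the order of the 2 LS174T arrays, so these ranks are in part fixed by it. The ranks over all compared miRNAs were not counted. Over the 435 human probes among those 471, the median absolute log2 difference between shRNA-Ascl2/LS174T and the HT-29 arrays was 0.48 (shRNA-Ascl2/HT-29) and 0.45 (shRNA-Ctr/HT-29). Between shRNA-Ctr/LS174T and the same arrays it was 0.94 and 1.15, and between the 2 LS174T arrays it was 0.92. The shRNA-Ascl2/LS174T array was thus nearer to both arrays of the other cell line than to its own control. A property of the shRNA-Ctr/LS174T hybridisation and an effect of the knockdown cannot be told apart with 1 array of each.

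Markers of other cell types were read on the same arrays. Of 7 blood cell miRNAs, all compared, 5 were lower, 1 was higher (miR-142-3p, 210 in shRNA-Ascl2/LS174T cells and 97.3 in shRNA-Ctr/LS174T cells) and 1 did not pass 2-fold. With dimmer values taken at 50, miR-451, miR-144 and miR-486-5p were still lower by 2-fold, and miR-223 and miR-142-5p were not. Relative to the spike-ins all 7 were lower, with miR-142-3p at 0.244, against 83.1% lower and 3.91% higher of all compared miRNAs. Their summed net intensity was 912 in shRNA-Ascl2/LS174T cells and 1673 in shRNA-Ctr/LS174T cells. The erythroid miR-451 averaged 50 in shRNA-Ascl2/LS174T cells and 334 in shRNA-Ctr/LS174T cells, and miR-144 of the same transcript averaged 19 in shRNA-Ascl2/LS174T cells and 256 in shRNA-Ctr/LS174T cells. Of the 9 stromal, muscle and endothelial miRNAs with a probe, 5 were compared, 3 were lower and none was higher. With dimmer values taken at 50, miR-133b was still lower by 2-fold and miR-143 and miR-133a were not. The summed intensity of all 9, with values below 0 set to 0, was 547 in shRNA-Ascl2/LS174T cells and 921 in shRNA-Ctr/LS174T cells. miR-126 of endothelium and miR-1 of muscle were below 0 on both arrays, and miR-145 of smooth muscle was at 5.25 in shRNA-Ascl2/LS174T cells and 2 in shRNA-Ctr/LS174T cells. Of 5 neuronal miRNAs, 3 were compared and 2 were higher, with miR-124 at a ratio of 0.685 and with miR-137 and miR-138 at or below 0 on both arrays. miR-9 was higher at 1151 in shRNA-Ascl2/LS174T cells and 99.8 in shRNA-Ctr/LS174T cells, and it was below 10 on both HT-29 arrays. miR-128 was at least 5.86-fold higher at 301.5 in shRNA-Ascl2/LS174T cells and 19.8 in shRNA-Ctr/LS174T cells. These 2 rises are relative to the miRNA median. On the spike-in scale, none of the 3 neuronal miRNAs was higher and 1, miR-124, was lower. The part of other cell types in the ratios was not tested.

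The stemness set holds miRNAs that the paper picked in HT-29 transfectants, some of them higher and some lower with shRNA-Ascl2. They were read here in LS174T cells. let-7b and miR-20a were higher and miR-17 was within 2-fold, as given above, and the star strands let-7b*, miR-17* and miR-20a* had ratios of 2.01, 7.22 and 4.18. let-7b* was near the threshold, with a range of 1.40 to 3.01 over the alternatives. Relative to the spike-ins, all compared strands of the set were lower except let-7b and miR-17*, while 83.1% of all compared miRNAs were lower. The ratios there were 0.234 for let-7b*, 0.486 for miR-20a*, 0.445 for miR-20a, 0.208 for miR-17, 0.346 for miR-302b* and 0.0797 for miR-124. miR-124* had a ratio of 0.528, and miR-125b-2* was called lower at 22.5 in shRNA-Ascl2/LS174T cells and 61 in shRNA-Ctr/LS174T cells, a call that is lost with the dimmer array taken at 50. miR-302b, a miRNA of pluripotent cells, read 0, 5, -2 and 1 in shRNA-Ascl2/LS174T cells and 10, 12, -1 and 20 in shRNA-Ctr/LS174T cells, so that it was not above 50 on either array. Its star strand miR-302b* averaged 133 ± 29.9 in shRNA-Ascl2/LS174T cells and 43.5 ± 29.4 in shRNA-Ctr/LS174T cells (SD over 4 spots), which is 2.58-fold higher with the control array taken at 50. Its lowest ratio over the alternatives of processing was 1.67, so that its call depends on the processing. miR-302a and miR-302c*, from the same cluster, were lower at 0.325 and 0.343. miR-125b averaged 35.8 in shRNA-Ascl2/LS174T cells and 67.8 in shRNA-Ctr/LS174T cells and was not called. miR-124, a neuronal miRNA, read 443, 491, 475 and 557 in shRNA-Ascl2/LS174T cells, against 846, 631, 629 and 682 in shRNA-Ctr/LS174T cells, a ratio of 0.685.

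Relative to the miRNA median, these calls were set beside those of the same contrast in HT-29 cells. Of the 536 human miRNAs compared in both lines, 2 were higher and 4 lower by 2-fold or more in both. In opposite directions were 30, of which 26 were higher with shRNA-Ascl2 in LS174T cells and lower with shRNA-Ascl2 in HT-29 cells. When scaled on the spike-ins, 7 of the 30 were opposite, and 12 of the 26 were lower in both lines. With values under 50 raised to 50 on all arrays, 24 of the 30 were opposite relative to the miRNA median. In LS174T cells 28.8% of all compared miRNAs were higher and 25.4% lower relative to the miRNA median. The share called in HT-29 cells is not given here. Whether the shared and opposite counts exceed what the call rates alone would give was not tested. With 1 array per condition the difference between the lines has no test.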

How the data were processed

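Total RNA of the 4 transfectants was hybridised to Exiqon miRNA arrays of the 6th generation with the Hy3 label, 1 colour per array. Per the file headers and the methods, the authors scanned the arrays and read each spot with GenePix Pro 6.0, and the deposited values are linear intensities of the foreground and of the foreground minus background, which can be below 0 and are not scaled between arrays. The median local background was 52.0 on the shRNA-Ascl2/LS174T array and 64.0 on the shRNA-Ctr/LS174T array, and 9 and 13 spots reached 60000. A value table deposited by the authors holds ratios, namely the median of the net spots of a probe divided by 1 constant per array, on a linear scale with no centring of probes. Its column medians were 0.175 for shRNA-Ascl2/LS174T and 0.221 for shRNA-Ctr/LS174T. The constants were 330.5 and 335, the same over the 647 and 637 probes checked. It was used as an alternative. Another 4 tables hold the authors' own 2-fold lists with fold changes and were not used.

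Spots of a probe ID were averaged as net intensities with Python 3.11.15 and pandas 2.3.3, and ratios were scaled on the miRNA median or on the median ratio of the spike-in controls above 50 on both arrays. Ratios against an intensity at or below 0 were not given, and bounds use 50 in place of a dimmer value. Such a bound holds for the main processing only. Over the alternatives of background, spot summary and block range, some ratios crossed such a bound. The lowest ratios were 1.67 for miR-302b*, 2.00 for miR-454, 2.39 for miR-378*, 3.58 for miR-128 and 6.14 for miR-192*. miR-10b, called lower, reached 0.510 and so did not pass 2-fold there. The number of arrays, 1 per condition, limits the precision, so no test was run. Named are the miRNAs higher under both scalings, the 12 largest rises and 12 largest falls above 50 on both arrays with spots that did not overlap, the 5 brightest per array, the stemness set with its other arms, members of 30 lists, and partner arms of the first 2 groups. SNORD48 and the miRNAs given as neighbours or opposite arms were named after their values were seen. The members and lists were chosen with earlier results of these data known. Old array names were matched by hand to the RefSeq arm names, and neighbours are hairpins within 10000 bases in RefSeq GRCh38.p14, counted for probes with 1 hairpin. The steps were tested on simulated spots. Alternatives changed the scaling set, background (none, or normexp with an offset of 50 in limma 3.58.1), spot summary, block range, limit and fold.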

Additional observations from a re-analysis of the deposited data

Results flagged for a closer look

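Relative to the miRNA median, some miRNAs were called in LS174T cells in the direction opposite to that in HT-29 cells. The difference between the lines was not tested, since each line had 1 array per condition. In LS174T cells the ratio of shRNA-Ascl2 over shRNA-Ctr was 3.82 for miR-20a, 2.84 for miR-378, 7.46 for miR-378c, 4.94 for miR-301a, 3.17 for miR-301b, 4.81 for miR-454, 6.46 for miR-135b, 2.97 for miR-302b* and 49.9 for miR-378*. In HT-29 cells the same ratio was 0.487 for miR-20a, 0.363 for miR-378, 0.230 for miR-378c, 0.371 for miR-301a, 0.487 for miR-301b, 0.425 for miR-454, 0.133 for miR-135b, 0.174 for miR-302b* and 0.303 for miR-378*. miR-135b averaged 578 with shRNA-Ascl2 and 87.0 with shRNA-Ctr in LS174T cells, and 155 with shRNA-Ascl2 and 1272 with shRNA-Ctr in HT-29 cells. miR-3195 went the other way, with a ratio of 0.112 in LS174T cells and 6.54 in HT-29 cells. miR-378* and miR-302b* were above 50 on only 1 array of each line, and with the dimmer LS174T array taken at 50 they were at least 2.50-fold and 2.58-fold higher. In HT-29 cells, with the dimmer array taken at 50, miR-302b* was at 0.339 and miR-378* at 0.931, so that the call of miR-378* there rests on an intensity under 50. miR-454 was at 30.5 in shRNA-Ctr/LS174T cells, which gives at least 2.93-fold. The opposite directions depended on the scaling, since relative to the spike-ins miR-20a (0.445), miR-378 (0.330), miR-301b (0.369) and miR-302b* (0.346) were lower in LS174T cells too, and miR-301a (0.575), miR-454 (0.560), miR-378c (0.868) and miR-135b (0.751) did not pass 2-fold there.

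Signal was also present on probes outside the human miRNAs. Of the 543 probe IDs without a name that were above 50 on the brighter LS174T array, 59 were higher by 2-fold or more in shRNA-Ascl2/LS174T cells and 167 were lower. Of 55 viral miRNA probes above that limit, 2 were higher by 2-fold or more and 29 were lower. These counts are relative to the miRNA median, where 28.8% of the compared human miRNAs were higher and 25.4% lower. With spike-in scaling these probes were not counted.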

How the results depend on the processing

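With 1 array per condition and 4 spots per probe, the ratios have only technical precision. No paired analysis was possible because each group had 1 array. Relative to the miRNA median, the count of higher miRNAs moved by over 1.5 times only with the small RNA controls (116), and was 126 to 201 under the other alternatives. The count of lower miRNAs was less stable, at 340 with the small RNA controls, 83 with no background subtraction, 59 with normexp, 72 with the brighter array above 200, 92 with both arrays above 50, 240 at 1.5-fold, 62 at 3-fold and, chosen after the data were seen, 100 with the median of the probe ratios. Relative to the spike-ins, the count of higher miRNAs was 15 with no background subtraction, 13 with normexp, 13 with the brighter array above 200, 9 with both arrays above 50, 13 at 3-fold and, chosen after the data were seen, 11 with values below 50 raised to 50. The count of lower miRNAs relative to the spike-ins was 270 with the brighter array above 200, where fewer miRNAs are compared. The array-wide shift was 8.42 to 10.5 under its 4 alternatives.

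Relative to the miRNA median, 120 named miRNAs had a main ratio past 2-fold. They include miR-302b, miR-155* and miR-222*, which were below 50 on both arrays and so not called. Of the 120, 80 stayed past 2-fold under each of the 6 alternatives of background, spot summary and block range that gave a ratio. Only miR-1181 turned round, to 0.750 with the spot median and 0.610 with blocks 19 to 36. Relative to the spike-ins, miR-192, miR-7, miRPlus-A1086 and miRPlus-A1087 stayed at 2-fold or more under all 6 alternatives. The spike-in-scaled ratio fell below 1 with no background subtraction for miR-26b* (0.391), miR-378* (0.485), miR-34a* (0.322), miR-339-3p (0.339), miR-532-5p (0.878) and miR-146a (0.326). With normexp it was 0.365, 0.443, 0.322, 0.389, 0.708 and 0.354 for these miRNAs in the same order. For miR-1181 it was 0.0823 with the spot median and 0.0674 with blocks 19 to 36, and for miR-378* it was 0.996 with blocks 19 to 36. Except for miR-1181, which rests on 1 spot, the cause of these changes was not tested.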
